A study of Mus musculus with 4 samples.

Results

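The sirtuins are a family of 7 NAD-dependent enzymes, Sirt1 to Sirt7, and all 7 genes were measured in the mouse heart by 9 probe sets. The members were taken by symbol: every probe set that the platform annotation gives exactly 1 gene symbol, equal to a sirtuin, was kept, which gave 9 of 45037 probe sets and 7 of 18193 genes. Sirt5 had 3 probe sets and each other sirtuin had 1. No sirtuin probe set was shared with another symbol (0 probe sets).

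Total RNA of hearts was hybridised to 4 Affymetrix arrays, 1 per mouse according to the labels. The groups were 2 mice described as wild type, on the arrays NTg 1 and NTg 2, and 2 mice described as transgenic, on the arrays Tg-Sirt1 1 and Tg-Sirt1 2. All 4 animals received pentobarbital, 120 mg/kg, before the heart was taken and snap frozen. Strain, age, sex, the promoter of the transgene and the number of founder lines were not stated in the labels, so the cells in which the transgene was active are not known. The title of the series puts the question as the regulation of cardiac gene expression by Sirt1.

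Sirtuins remove acetyl or longer acyl groups from lysines and split a molecule of NAD in each reaction, so that their activity follows the NAD supply of the cell. Sirt1, Sirt6 and Sirt7 are mainly nuclear, Sirt2 is mainly cytosolic, and Sirt3, Sirt4 and Sirt5 lie in the mitochondrial matrix. In heart muscle they are best known for acting on transcription factors such as the FoxO proteins and, in mitochondria, on enzymes of fuel oxidation and oxidant defence.

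The labels did not divide the 4 arrays cleanly. NTg 1 and the array labelled Tg-Sirt1 1 were almost the same over 45037 probe sets (SD of the differences 0.0759 log2 units, largest 0.48, r = 0.9993, taken across probe sets and not across replicates), whereas the SD was 0.342 to 0.405 in the other 5 pairs. Whether those 2 arrays hold RNA of 1 heart, or whether one of them carries the wrong label, was not tested. The n of 2 per group is therefore that of the labels, and the number of separate hearts may be smaller. Array medians ran from 6.22 to 6.30 log2 units. The cardiac genes Myh6 (adult myosin heavy chain), Tnnt2 (cardiac troponin T) and Actc1 (cardiac actin) read 13.56 to 13.93 on every array, as in heart muscle. Values are given on the log2 scale of the deposited table, 1 unit being a doubling, and each is compared only within its own probe set. In whole tissue, fewer cells of a type and less RNA per cell cannot be told apart.

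Several sirtuin genes start beside a neighbour on the opposite strand, in the GRCm38.p6 promoter table from RefSeq, in which all 7 sirtuins had an entry. Taking the start sites nearest to each other, the pairs that start within 1000 bases of each other and whose neighbour was measured here are Sirt2 with Nfkbib, an inhibitor of NF-kB, at 108 bases, Sirt3 with Psmd13, a proteasome subunit, at 85 bases, and Sirt6 with Ankrd24 at 974 bases. The stretches between the first 2 pairs of start sites are shown because each lies directly upstream of both genes, so that their levels can be read side by side. They run 5′ to 3′ on the strand of the sirtuin, with CG dinucleotides in capitals.
Sirt2 to Nfkbib, chr7:28766645-28766751, plus strand: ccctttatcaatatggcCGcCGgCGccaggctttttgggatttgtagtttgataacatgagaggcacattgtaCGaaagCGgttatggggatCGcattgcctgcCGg
Sirt3 to Psmd13, chr7:140882310-140882393, minus strand: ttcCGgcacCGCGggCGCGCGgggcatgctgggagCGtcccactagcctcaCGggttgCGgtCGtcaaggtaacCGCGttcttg
The Sirt3 stretch of 84 bases holds 12 CG dinucleotides, and 7.6% of 32851 windows of that length directly upstream of a start site hold at least as many. The Sirt2 stretch of 107 bases holds 7, and 31.6% of windows of its length hold at least as many. Neither holds the letters GGGCGG or CCAAT on either strand, which occur in 22.7% and 16.1% of windows of 84 bases and in 25.4% and 19.8% of windows of 107 bases.

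Across the 9 sirtuin probe sets no difference between Tg-Sirt1 and NTg passed the test. In limma with Benjamini-Hochberg adjustment over all 45037 probe sets, 0 of 9 sirtuin probe sets and 0% of all probe sets had an adjusted p under 0.05, and 28 probe sets in all (0.0622%), none of them a sirtuin, had an unadjusted p under 0.05. An unmoderated test, which takes each probe set's spread from its own arrays alone, called 0 of 9 sirtuin probe sets and 15 of 45036 in all, with 487 at an unadjusted p under 0.05. The Tg-Sirt1 mean was higher for 7 of the 9, every Sirt5 probe set among them, as it was for 45.6% of all probe sets. It was lower for 2, and the median log2 difference was 0.09 against -0.015 over all probe sets. Among probe sets at or above the median level, where all but 1 of the 9 lie, the overall median was 0.03. With 1 probe set per gene, the Tg-Sirt1 mean was higher for 9653 of 18193 genes, with a median difference of 0.015. Every sirtuin had an adjusted p of 0.996. With 2 arrays against 2 an exact permutation test cannot give a p below 0.333. The near-identical pair holds 1 array of each label, which limits the test further.

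**Figure D1:**
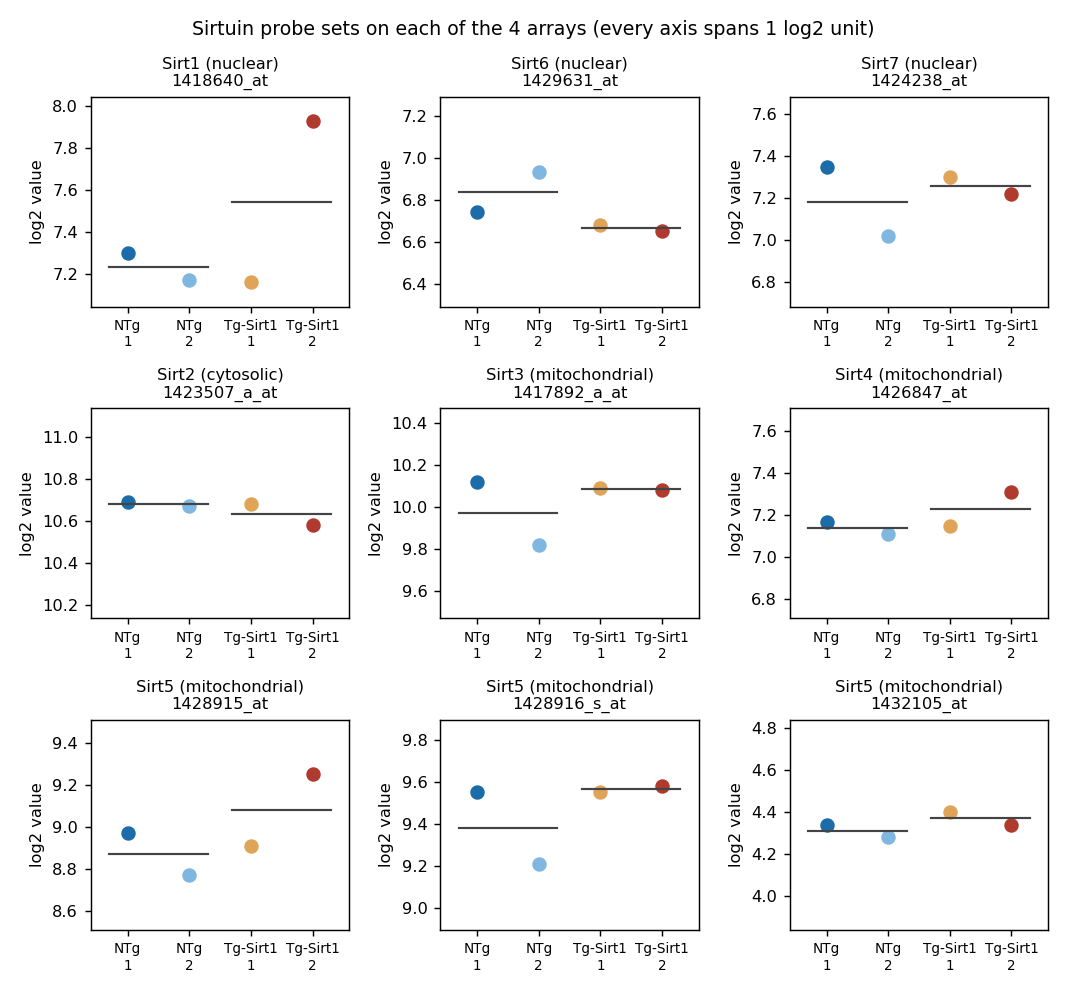
Log2 value of each of the 9 sirtuin probe sets (y axis, every panel spanning 1 log2 unit) on the arrays NTg 1, NTg 2, Tg-Sirt1 1 and Tg-Sirt1 2 (x axis, 1 point per array), with horizontal lines at the group means. Sirt1 stands at 7.93 on Tg-Sirt1 2 and between 7.16 and 7.30 on the other 3 arrays, and NTg 2 is the lowest array in 6 of the 9 panels.

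Among the nuclear sirtuins, Sirt1, the deacetylase whose gene gives the transgene its name, was high on 1 array of the 4. Probe set 1418640_at (Entrez gene 93759) gave 7.30 and 7.17 for NTg 1 and NTg 2, 7.16 for the array labelled Tg-Sirt1 1 and 7.93 for Tg-Sirt1 2. The array labelled Tg-Sirt1 1 was thus the lowest of all and the groups overlapped. Tg-Sirt1 2 lay 0.72 above the mean of the other 3 arrays, a ratio of 1.65 on the linear scale, while those 3 arrays spanned 0.14. Over all probe sets, 0.706% had Tg-Sirt1 2 at least as far above the next highest array (0.63 for Sirt1).

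The group difference of Sirt1 was 0.31 ± 0.27 (SE, n = 2 per group), with a 95% confidence interval from -0.39 to 1.01, or from 0.762-fold to 2.02-fold, and a limma adjusted p of 0.996. It was -0.075 without Tg-Sirt1 2 and 0.70 without the other array of that label, and averaging the near-identical arrays gave 0.73 when they stood as 1 NTg array and 0.41 when they stood as 1 Tg-Sirt1 array. The unadjusted limma p of these fits was 0.699, 0.0241, 0.0148 and 0.346, and their adjusted p ran from 0.692 to 0.997. Sirt1 also parted the near-identical arrays more than any other sirtuin. It differed by 0.14 between them, a gap that 8.21% of all probe sets reached, and the other 8 sirtuin probe sets by 0 to 0.06.

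Signs of RNA quality moved with the array on which Sirt1 was high. The 3′ minus 5′ control signal, which grows as the 5′ part of transcripts is lost, was 1.92 for Actb and 1.34 for Gapdh on Tg-Sirt1 2, compared with ranges of 1.22 to 1.44 and 0.18 to 0.69 elsewhere. Its part in the Sirt1 value was not tested. The part of the Sirt1 transcript that the probe set reads was not determined here, and a transgene built from a cDNA may lack it, so this probe set need not report the transgene.

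With symbols that are only clone names passed over, 3 genes had the pattern over the 4 arrays most like that of Sirt1. They were Zfyve26, which encodes a zinc finger protein of endosomes and lysosomes, Rictor, a defining subunit of mTOR complex 2, and Nxt2, a partner of mRNA export factors. Likeness was the Euclidean distance between log2 values centred on their mean over the 4 arrays. Zfyve26 lay 0.037 from Sirt1, with 7.14, 7.0, 7.01 and 7.73 in the order NTg 1, NTg 2, Tg-Sirt1 1 and Tg-Sirt1 2. Rictor lay 0.043 away, with 7.69, 7.59, 7.57 and 8.38, and Nxt2 0.062 away, with 6.10, 5.96, 5.99 and 6.80. Of 18192 other genes, clone names included, 14 lay within 0.1 of Sirt1 and 187 within 0.2. No other sirtuin had a range of 0.5 or more, the least at which this likeness was sought.

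Sirt6, a nuclear deacetylase of chromatin that acts in DNA repair and in the control of glycolytic genes, was the only sirtuin whose groups did not overlap. Probe set 1429631_at was 6.74 for NTg 1, 6.93 for NTg 2, 6.68 for the array labelled Tg-Sirt1 1 and 6.65 for Tg-Sirt1 2, so both Tg-Sirt1 arrays lay below both NTg arrays. This holds for 1 of 9 sirtuin probe sets and for 11.4% of all probe sets, and the reverse order holds for 0 of 9 and 9.59%. The gap between the groups was that of the near-identical pair, 0.06. Between those 2 arrays 38.4% of all probe sets differed by at least as much. The difference was -0.17 ± 0.14 (SE, n = 2 per group; 95% confidence interval -0.52 to 0.18; limma adjusted p = 0.996). It was -0.075 without NTg 2, which had the highest value, and -0.265 without NTg 1. The exact two-sided permutation p was 0.333, the smallest that 4 arrays can give.

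The neighbour of Sirt6 was set beside it. The main Ankrd24 probe set read 9.53, 9.70, 9.49 and 9.52 in the same array order, highest on NTg 2 as Sirt6 was. The other 2 Ankrd24 probe sets did not share 1 order: one was highest on NTg 2 at 5.31, and the other was highest on Tg-Sirt1 2 at 8.55.

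Sirt7, a sirtuin of the nucleolus linked to ribosomal RNA synthesis, was low on NTg 2 alone. Probe set 1424238_at was 7.35 for NTg 1, 7.02 for NTg 2, 7.30 for the array labelled Tg-Sirt1 1 and 7.22 for Tg-Sirt1 2. The Tg-Sirt1 values lay between the NTg values. The difference was 0.075 ± 0.16 (SE, n = 2 per group; 95% confidence interval -0.34 to 0.49), and it was -0.09 without NTg 2 and 0.24 without NTg 1.

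Sirt2, the cytosolic sirtuin that deacetylates tubulin, had the smallest range of the 9 probe sets. Probe set 1423507_a_at was 10.69 for NTg 1, 10.67 for NTg 2, 10.68 for the array labelled Tg-Sirt1 1 and 10.58 for Tg-Sirt1 2, a range of 0.11. The first 3 values lay within 0.02 of one another and Tg-Sirt1 2 was lowest. The difference was -0.05 ± 0.13 (SE, n = 2 per group) with a 95% confidence interval from -0.38 to 0.28, and it was -0.15 after a second quantile normalization. Nfkbib, which starts 108 bases away on the other strand, read 8.23, 7.97, 8.34 and 8.13 in the same array order, and a second Nfkbib probe set 5.31, 5.63, 5.36 and 5.38.

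**Figure D2:**
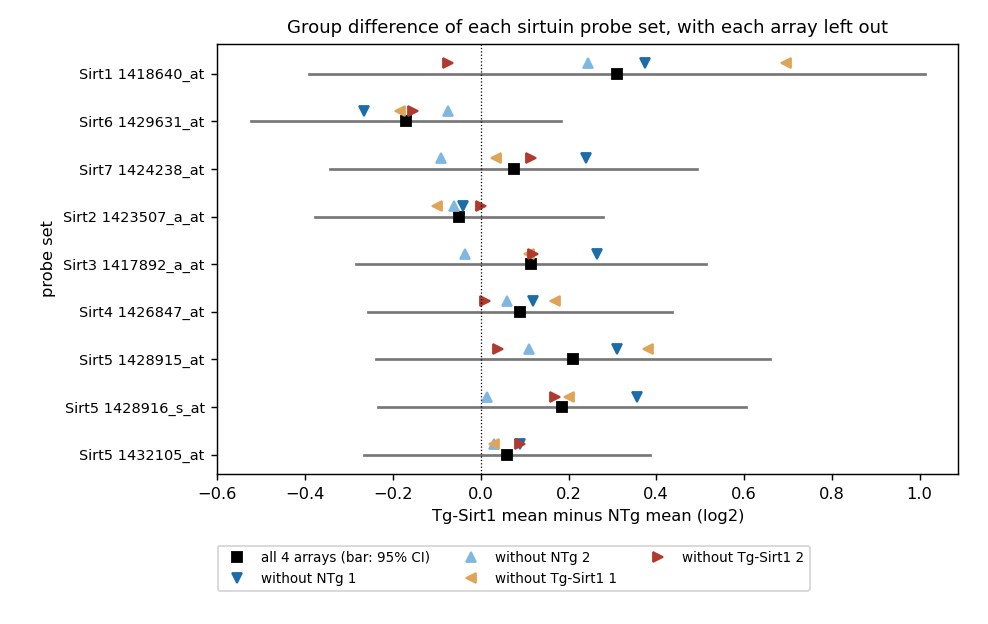
Tg-Sirt1 mean minus NTg mean in log2 units (x axis) for each sirtuin probe set (y axis): squares are the fit to all 4 arrays with bars for the limma 95% confidence interval, and triangles are the fits with 1 array left out. Every interval spans 0, and the Sirt1 difference runs from -0.075 without Tg-Sirt1 2 to 0.70 without the array labelled Tg-Sirt1 1.

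Of the mitochondrial sirtuins, Sirt3, the main deacetylase of the matrix, was lower on NTg 2 than on the other arrays. Probe set 1417892_a_at was 10.12 for NTg 1, 9.82 for NTg 2, 10.09 for the array labelled Tg-Sirt1 1 and 10.08 for Tg-Sirt1 2. The other 3 arrays lay within 0.04 of one another, and NTg 2 was 0.26 to 0.30 below them. The difference between the groups was 0.115 ± 0.16 (SE, n = 2 per group; 95% confidence interval -0.28 to 0.51), without NTg 2 it was -0.035, and a second quantile normalization of the deposited values brought it to 0.0075.

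Psmd13, which starts 85 bases from Sirt3 on the opposite strand, ordered the arrays differently. Its main probe set was 9.28 for NTg 1, 8.85 for NTg 2, 9.33 for the array labelled Tg-Sirt1 1 and 8.66 for Tg-Sirt1 2. Tg-Sirt1 2 was the lowest array in all 4 Psmd13 probe sets, whereas Sirt3 differed by 0.01 between the Tg-Sirt1 arrays. The Psmd13 difference was -0.07 ± 0.28 (SE, n = 2 per group).

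Sirt4, a matrix enzyme with ADP-ribosyltransferase and deacylase activity that restrains glutamate dehydrogenase, stayed within a narrow span. Probe set 1426847_at was 7.17 for NTg 1, 7.11 for NTg 2, 7.15 for the array labelled Tg-Sirt1 1 and 7.31 for Tg-Sirt1 2. The difference was 0.09 ± 0.14 (SE, n = 2 per group; 95% confidence interval -0.26 to 0.44), and it fell to 0.01 without Tg-Sirt1 2, the highest array.

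Sirt5, which removes succinyl, malonyl and glutaryl groups from mitochondrial proteins, was read by 3 probe sets that ordered the arrays differently. Probe set 1428915_at was 8.97 for NTg 1, 8.77 for NTg 2, 8.91 for the array labelled Tg-Sirt1 1 and 9.25 for Tg-Sirt1 2. Here NTg 2 was low and Tg-Sirt1 2 was high, with a range of 0.48. Probe set 1428916_s_at was 9.55, 9.21, 9.55 and 9.58 in the same order, so that NTg 2 alone stood apart. Probe set 1432105_at was dim, below the median of each array, at 4.34, 4.28, 4.40 and 4.34 in that order.

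All 3 Sirt5 probe sets had a higher Tg-Sirt1 mean, by 0.21 ± 0.18, 0.185 ± 0.16 and 0.06 ± 0.13 in that order (SE, n = 2 per group). They share 1 gene and the same RNA and are not separate evidence. Without NTg 2 the differences were 0.11, 0.015 and 0.03, and without Tg-Sirt1 2 they were 0.04, 0.17 and 0.09. Thus the first rested mostly on Tg-Sirt1 2 and the second mostly on NTg 2. A second quantile normalization gave 0.126, 0.086 and 0.0925.

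**Figure D3:**
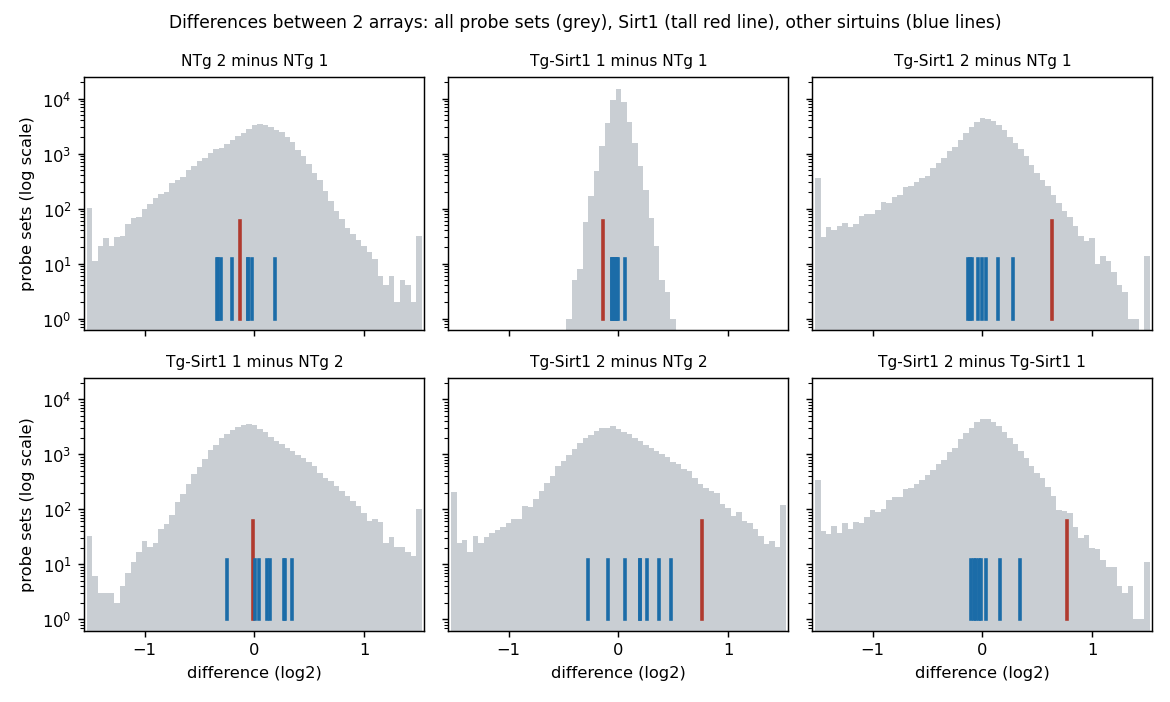
Histograms of the difference between 2 arrays over all 45037 probe sets (x axis, log2 units, with values beyond 1.5 placed in the end bins; y axis, number of probe sets on a log scale) for the 6 pairs of arrays. The tall red line is Sirt1 and the short blue lines are the other sirtuin probe sets; Sirt1 lies at 0.63 to 0.77 in the 3 pairs with Tg-Sirt1 2, and the narrow histogram is the near-identical pair.

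Which array was extreme differed from gene to gene. NTg 2 was strictly lowest for 6 of 9 sirtuin probe sets, against 29.6% of all probe sets, and strictly highest for 1, against 38.5%. Those 6 probe sets belong to Sirt3, Sirt4, Sirt5 and Sirt7, 3 of them to Sirt5. With 1 probe set per gene, NTg 2 was lowest for 4 of 7 sirtuins, against 37.9% of all genes, and highest for 1, against 34.3%. Tg-Sirt1 2 was strictly highest for 4 of 9 probe sets, against 30.1%, and lowest for 2, against 29.2%, or highest for 3 of 7 genes, against 35.8%, and lowest for 2, against 23.2%. Sirt1 was the only sirtuin in which 1 array lay at least 0.5 above or below each other array, which holds for 1.76% of all probe sets on the high side of Tg-Sirt1 2.

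Markers of other cell types also differed between the arrays. The 3 neutrophil markers measured averaged 7.52 for NTg 2 and 6.24 to 6.56 elsewhere. That average rested on the calprotectin genes S100a8, at 7.55 against 5.64 to 6.10, and S100a9, at 8.15 against 6.39 to 6.77, while Csf3r, the receptor of the granulocyte growth factor, lay between 6.65 and 6.85 on all 4 arrays. The 8 fibroblast markers averaged 10.24 on NTg 2 and 10.76 to 11.11 elsewhere. The 4 markers of atrial muscle averaged 10.86 and 10.87 on the near-identical pair, 11.24 on NTg 2 and 11.54 on Tg-Sirt1 2, while the 8 cardiomyocyte markers averaged 13.53 to 13.67. The 3 adipocyte markers averaged 6.49 and 6.56 on the near-identical pair, 5.62 on NTg 2 and 5.72 on Tg-Sirt1 2. Endothelial markers averaged 9.46 and 9.45 on the near-identical pair and were lower on NTg 2, at 9.10, and on Tg-Sirt1 2, at 9.09. Not every endothelial gene followed these averages. Tek was highest on Tg-Sirt1 2, at 10.09 against 9.34 to 9.82 elsewhere, and Cdh5 was not lower on NTg 2 than on the pair. Kdr and Pecam1 lay farthest below the pair on Tg-Sirt1 2. Kdr read 10.36 there against 11.17 and 11.18, and Pecam1 7.79 against 8.62 and 8.66. Smooth muscle and pericyte markers averaged 10.97 on both arrays of the pair, 10.60 on NTg 2 and 10.61 on Tg-Sirt1 2, but different genes set these low averages. On NTg 2 Acta2 lay farthest below the pair, at 11.83 against 13.20 and 13.21. On Tg-Sirt1 2 Tagln did, at 9.13 against 10.16 and 10.13, while Pdgfrb was highest there at 10.53. Over the 4 arrays the average ran from 8.63 to 9.12 for macrophage markers, 6.12 to 6.19 for lymphocyte, 6.35 to 6.51 for erythroid, 5.23 to 5.41 for skeletal muscle and 5.99 to 6.19 for lung, liver and thymus markers. Their part in the sirtuin values was not tested.

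The genes around the sirtuins gave no call either. In limma 0 of 123 distinct genes on 5 lists passed an adjusted p of 0.05 in either direction, as for 0% of 18193 genes, and 0 of the 123 had an unadjusted p under 0.05, as did 9 of all genes (0.0495%). The median log2 difference of all genes was 0.015. It was 0.01 after a second quantile normalization and -0.005 when a gene was the mean of all its probe sets. Over all genes, 11.4% had both Tg-Sirt1 arrays above both NTg arrays and 9.3% had them below.

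Regulators and partners of the deacetylases had a median difference of 0.095 over 17 genes. That median was 0.025 without NTg 2, 0.01 after a second quantile normalization and 0.0083 with the mean of all probe sets of a gene. On this list 2 genes had both Tg-Sirt1 arrays above both NTg arrays and 0 had them below. Their smallest p-values were those of Prkaa1, the catalytic subunit alpha 1 of the energy sensor AMPK (0.675 ± 0.35, SE), Rps19bp1, the Sirt1 activator AROS (0.25), and Setd7, a lysine methyltransferase (0.20). Prkaa1 read 6.23, 5.75, 6.20 and 7.13 in the order NTg 1, NTg 2, Tg-Sirt1 1 and Tg-Sirt1 2, so that it too was high on Tg-Sirt1 2 alone, and without that array its difference was 0.21. Rps19bp1 was 7.11 for NTg 2 and 7.51 to 7.57 elsewhere, with both Tg-Sirt1 arrays above both NTg arrays, and its difference was 0.05 without NTg 2. The near-identical pair set its gap, at 7.51 for NTg 1 and 7.55 for the array labelled Tg-Sirt1 1. The difference of Setd7 was 0.055 without NTg 2 and 0.115 without Tg-Sirt1 2.

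Nuclear and cytosolic substrates had a median of 0.105 over the 37 measured here of 41. It was -0.035 without NTg 2, 0.0275 after a second quantile normalization and -0.022 with the mean of all probe sets of a gene, so its sign depends on these choices. Here 4 genes had both Tg-Sirt1 arrays above both NTg arrays and 2 had them below. Atg5, which is needed to form autophagosomes (0.54), Smad3, a transducer of TGF-beta signals (0.515), and the hypoxia factor gene Hif1a (0.42) had the smallest p-values. All 3 were lowest on NTg 2 and highest on Tg-Sirt1 2: Atg5 read 8.01, 7.38, 8.01 and 8.46 across the arrays. In Smad3 and Hif1a both Tg-Sirt1 arrays lay above both NTg arrays, but the near-identical pair set the gap: Smad3 was 9.34 for NTg 1 and 9.36 for the array labelled Tg-Sirt1 1, and Hif1a 10.25 and 10.26. Without NTg 2 the 3 differences were 0.225, 0.185 and 0.14.

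Mitochondrial substrates and partners had a median of -0.01 over 29 genes of 31, which was -0.045 after a second quantile normalization, -0.0525 with the mean of all probe sets of a gene and 0.02 without Tg-Sirt1 2. Mlycd, the malonyl-CoA decarboxylase that is a Sirt4 target, was 10.17, 10.42, 10.14 and 9.86 in the array order used above. Both Tg-Sirt1 arrays lay below both NTg arrays, but the near-identical pair set the gap, at 10.17 and 10.14. The Mlycd difference was -0.295 ± 0.17 (SE, n = 2 per group), and it was -0.17 without NTg 2 and -0.155 without Tg-Sirt1 2. The DNA repair glycosylase gene Ogg1 differed by -0.195 and the glutamate dehydrogenase gene Glud1 by 0.195, and without NTg 2 by -0.035 and 0.025. On this list 4 genes had both Tg-Sirt1 arrays below both NTg arrays and 0 had them above.

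Enzymes of NAD synthesis and consumption, the co-substrate supply of the family, had a median of 0.055 over 31 genes of 33, with the poly(ADP-ribose) polymerase family genes Parp4 (0.425) and Parp2 (0.255) and the NADH diphosphatase gene Nudt12 (0.415) at the smallest p-values. Nudt12 was 8.91 for Tg-Sirt1 2 and 7.99 to 8.18 elsewhere, and its difference without Tg-Sirt1 2 was 0.005. Without NTg 2 those of Parp4 and Parp2 were 0.14 and 0.06. The median of the list was 0.031 after a second quantile normalization, 0.035 with the mean of all probe sets of a gene and -0.005 without Tg-Sirt1 2, and 1 gene had both Tg-Sirt1 arrays above both NTg arrays while 3 had them below. The zinc-dependent deacetylases Hdac1 to Hdac11 had a median of -0.05 over 11 genes, with Hdac8 at -0.325, Hdac2 at 0.255 and Hdac7 at -0.345, which came to -0.025, 0.195 and -0.405 when NTg 2 was left out. Leaving out Tg-Sirt1 2 gave -0.22, 0.04 and 0.01 instead. The median of the 11 genes was 0.03 without Tg-Sirt1 2 and -0.12 after a second quantile normalization. Of the 11, 1 gene had both Tg-Sirt1 arrays above both NTg arrays and 0 had them below.

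**Figure D4:**
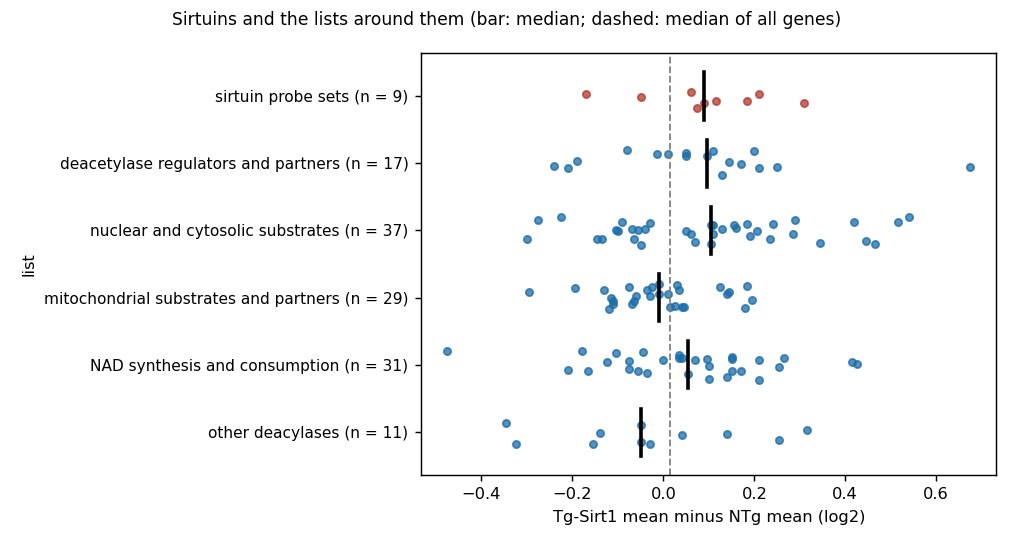
Tg-Sirt1 mean minus NTg mean in log2 units (x axis) for the 9 sirtuin probe sets and for the genes of the 5 lists (y axis, 1 point per probe set or gene, shifted vertically at random to separate them), with a black bar at each median and a dashed line at the median of all genes, 0.015. No point passed the test; list medians run from -0.05 to 0.105 in the fit shown (all but that of the regulators changed sign under an alternative), and Prkaa1 is the point farthest to the right at 0.675.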

How the data were processed

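The deposited values are log2 expression with 2 decimals, 1 per probe set and array. Per the submitters' processing notes they were made with RMA and the Affymetrix Expression Console, with no version named. RMA as generally run quantile normalizes the arrays and damps differences of dim probe sets. Without scanner files, detection calls and scan dates are unknown, and the low number of arrays limits how precise any value is.

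From 45101 probe sets the 64 controls were removed. The platform annotation gave 34945 of the rest 1 gene symbol, 932 several and 9160 none here. The fit was limma 3.58.1 in R 4.3.3 (lmFit, then eBayes with no trend), two-sided, with all 4 arrays and no covariate. P-values were adjusted by Benjamini-Hochberg over 45037 probe sets at 0.05, with 2 residual and 3.10 prior degrees of freedom. The script was tested on simulated data. For lists and neighbours, a gene was represented by its 1-symbol probe set of highest mean. Named genes were every sirtuin probe set, the 3 genes of smallest p per list, the 3 genes most like a sirtuin with a range of at least 0.5 (clone names passed over), and Myh6, Tnnt2 and Actc1. Head-to-head neighbours, S100a8, S100a9, Csf3r and the endothelial, smooth muscle and adipocyte marker genes named were added after their values were seen. The members, the 5 lists and the 12 cell type marker lists were chosen with earlier results of these data known. Alternatives left out each array, averaged the near-identical pair, added the replicate number as a block, and changed the filter, normalization, offset, variance model and threshold.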

Additional observations from a re-analysis of the deposited data

How the results depend on the processing

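No sirtuin probe set and no list gene passed an adjusted p of 0.05 under any alternative run. The count over all probe sets was 0 in each of them except the unmoderated test, which called 15 of 45036 (487 at an unadjusted p under 0.05); 15 probe sets had equal rounded values within both groups and therefore no measured spread. Sirt3 and Sirt7 changed sign without NTg 2 (-0.035 and -0.09) and Sirt1 without Tg-Sirt1 2 (-0.075), and Sirt2 was 0 without Tg-Sirt1 2; the other 112 of 116 refitted sirtuin differences kept their direction but not always their size. A second quantile normalization gave 0.0075 for Sirt3, -0.15 for Sirt2 and 0.126, 0.086 and 0.0925 for the Sirt5 probe sets, and centring each array on its median gave -0.015 for Sirt2. Leaving out 1 array gave Sirt1 -0.075 to 0.695, Sirt3 -0.035 to 0.265 and Sirt7 -0.09 to 0.24. With the replicate number as a block, 0 probe sets passed (lowest adjusted p 0.931) and Sirt1 stayed at 0.31; the deviations of same-numbered arrays correlated at 0.293 over probe sets, but the labels state no pairing and there are only 2 pairs. Leaving out 1 array or averaging the pair leaves a group with 1 array, which is assumed to vary like the other group. The dim Sirt5 probe set was not in the fit restricted to brighter probe sets.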
